A study of Rattus norvegicus with 11 samples.

Results

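The miRNAs described here are 5 that are best known from neurons, namely rno-miR-9, rno-miR-124, rno-miR-128, rno-miR-129 and rno-miR-153 (the prefix for rat is left out below), measured in pancreatic islets of female rats of the Sprague Dawley strain. They were chosen by name, as the array names with these stems that carry no star and stand on both array designs used, and they make up 5 of 340 names shared by the designs and of 687 on either design. The daughters differed in the diet of their fathers. HFD daughters had fathers on a high-fat diet with 43% fat, and Control daughters had fathers on standard chow with 9% fat. All mothers ate chow, the fathers were mated at 15 weeks of age, and the daughters of both groups were themselves weaned onto chow at 3 weeks. Both groups were tested for glucose tolerance when 6 and 12 weeks old and for insulin tolerance when 11 weeks old, and their islets were taken at 13 weeks. There were 11 arrays, 5 HFD and 6 Control, each of 100 ng of total RNA from 1 sample with its own number in the labels. Whether any of them had the same father or litter is not given in the sources used here, so p-values measure the spread between these samples and treat them as independent.

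A miRNA is a short RNA that guides a silencing complex to messenger RNAs through its seed, a stretch near its 5′ end, and so lowers the output of its targets. Beta cells, the insulin-producing cells that make up most of a rat islet, share with neurons much of their machinery for regulated secretion. miR-124 is among the most abundant miRNAs of the brain and promotes neuronal differentiation, and in cultured beta cells it was found to act on Foxa2 and on proteins of insulin exocytosis. miR-9 acts in neural progenitors and neurons, and in cultured beta cells a raised level of it was found to lower insulin release through the transcription factor Onecut2. miR-128 and miR-129 are enriched in the brain, where miR-128 is known for limiting neuronal excitability. miR-153 lies in the gene of Ptprn2, a membrane protein of the dense-core vesicles of neurons and endocrine cells, and in zebrafish it was found to act on a SNARE protein of vesicle release.

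The mature sequences are shown because the seeds decide which messenger RNAs these miRNAs can pair with. RefSeq entries of rat assembly GRCr8 were matched for 4 of the 5, written 5′ to 3′ with the seed, bases 2 to 8, in capitals. The array names give no arm, so each was paired with the main arm that the older unstarred name stood for.
miR-9 (miR-9a-5p): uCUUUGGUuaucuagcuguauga
miR-128 (miR-128-3p): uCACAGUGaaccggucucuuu
miR-129 (miR-129-5p): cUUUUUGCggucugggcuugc
miR-153 (miR-153-3p): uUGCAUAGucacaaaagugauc
The 4 sequences had 4 distinct seeds, and no other rat name in the RefSeq table had any of these seeds. Their longest shared runs were 3 to 6 bases, the longest between miR-128 and miR-129. GC content was 34.8% for miR-9, 47.6% for miR-128, 57.1% for miR-129 and 36.4% for miR-153. The 5 are grouped here by where they are known to act, not by sequence.

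Several of these miRNAs have more than 1 gene, so the array signal sums over copies. miR-9 and miR-124 have 3 genes each, miR-128 and miR-129 have 2 each, and miR-153 has 1. The hairpins of miR-129 and miR-153, the members that every array detected, are shown with the mature arm in capitals. Mir129-1 lies on the plus strand at chr4:58589711-58589782 within a long non-coding RNA gene, Mir129-2 on the minus strand at chr3:100657390-100657486 in no annotated gene, and Mir153 on the plus strand at chr6:144306594-144306680 within Ptprn2 and a long non-coding RNA gene, all in GRCr8.
Mir129-1: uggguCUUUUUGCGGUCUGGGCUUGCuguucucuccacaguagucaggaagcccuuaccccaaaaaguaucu
Mir129-2: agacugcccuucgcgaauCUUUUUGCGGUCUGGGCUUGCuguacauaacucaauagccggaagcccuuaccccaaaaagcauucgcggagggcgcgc
Mir153: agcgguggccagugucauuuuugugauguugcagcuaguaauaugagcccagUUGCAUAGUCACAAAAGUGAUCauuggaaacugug
The mature arm of miR-129 is the same in both of its hairpins, so the signal under the name miR-129 could not tell the copies apart. Mir128-1, at chr13:42251884-42251965 on the plus strand, overlaps R3hdm1, and Mir128-2, at chr8:120963795-120963878 on the minus strand, overlaps Arpp21, which encodes a phosphoprotein of neurons.

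The arrays were of 2 designs that coincided with slide and scan. The first design held 4 HFD and 4 Control arrays, and the second held 1 HFD and 2 Control arrays. Values are scaled signals in arbitrary units, made by summing the probes of a miRNA and dividing by a factor per array, and log2 of them was taken for tests. Between 105 and 157 shared names were detected per array on the first design and between 130 and 184 on the second, where detection is the scanner software's call. The lowest count, 105, was that of HFD 653, whose negative-control spots had an SD of 11.6 before scaling, against 2.03 to 2.41 on the remaining first-design arrays. The islet label was checked on miR-375 and miR-7a, which islet endocrine cells are known to carry at high levels. miR-375 was detected on 11 of 11 arrays at 3717 to 6648 units and miR-7a on 11 of 11 at 6186 to 10634 units. Of the glial markers, miR-338 was detected on 9 arrays at no more than 44.7 units and miR-219-5p on 5 arrays. The 4 skeletal and cardiac muscle markers and the liver marker miR-122 were detected on none. On the first design the 4 leukocyte markers summed to 33.6 to 356 units on HFD arrays and 33.1 to 40.4 on Control arrays, the 2 acinar markers to 106 to 666 and 21.0 to 623, the 5 mesenchymal markers to 272 to 595 and 263 to 460, and the endothelial miR-126 read 349.7 to 613 and 388 to 501. The 356 units of leukocyte markers were those of HFD 603, where miR-150 gave 209 and miR-142-3p 102 units. On HFD 607, 644 and 653 miR-150 gave 25.1, 13.4 and 71.2 units, the last without a detection call, and miR-142-3p was not detected. Of the 2 red blood cell markers, neither was detected on the first design and miR-451 was on all 3 arrays of the second. The second design's sums on HFD 640 and on the 2 Control arrays were 146 and 77.8 to 147 units for leukocyte, 438 and 369 to 459 for acinar, 468 and 363 to 628 for mesenchymal, 743 and 642 to 723 for endothelial, and 36.2 and 26.9 to 61.8 for red blood cell markers. The part of these cells in the values below was not tested. In bulk islets, fewer cells of a type and less of a miRNA per cell cannot be told apart.

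The 5 neuronal miRNAs split into 2 that were not seen in these islets and 3 that were. miR-9 and miR-124 were detected on 0 of 5 HFD arrays and 0 of 6 Control arrays. miR-128 was detected on 4 of 5 HFD arrays and 5 of 6 Control arrays. miR-129 and miR-153 were detected on 5 of 5 HFD arrays and 6 of 6 Control arrays. Among all 340 shared names, 133 (39.1%) were detected on no array and 85 (25%) on all 11. A lack of detection here means that the signal did not rise above background at this sensitivity, not that the miRNA was absent.

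**Figure D1:**
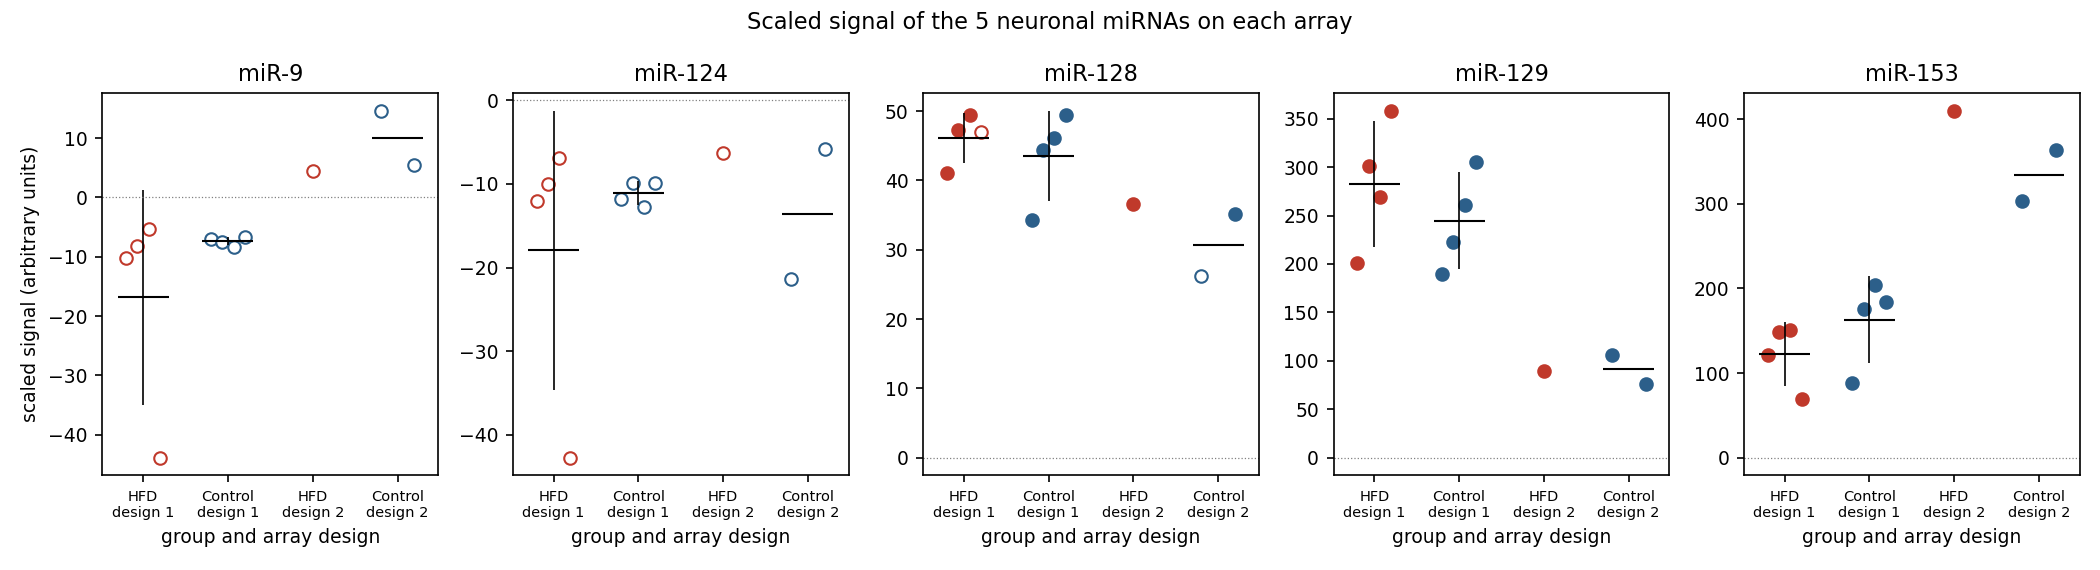
Scaled signal in arbitrary units (vertical axes, each panel with its own range) of the 5 neuronal miRNAs on each array, by group and array design. Filled points are arrays on which the miRNA was detected and open points are arrays on which it was not; horizontal lines are means, and vertical bars are the SD over the 4 arrays of a group on the first design. miR-9 and miR-124 have only open points, and miR-129 and miR-153 lie at different levels on the 2 designs.

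miR-9, known in beta cells from its effect on insulin release, gave -10.2, -8.13, -5.28 and -43.8 units on HFD 603, 607, 644 and 653, against -6.92, -7.53, -8.28 and -6.66 units on Control 602, 613, 615 and 639. On the second design it gave 4.42 units on HFD 640, against 14.6 and 5.55 units on Control 635 and 652. These values are background-subtracted, so a value below 0 lies under the local background, and the groups overlapped on the first design. In units of the SD of each array's own negative-control spots, miR-9 lay between -2.88 and 1.11 relative to their mean, above it on the 3 arrays of the second design and below it on the 8 of the first. None of its spots was well above background on either design.

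miR-124, the hallmark miRNA of neurons, gave -12.1, -9.98, -6.93 and -42.7 units on HFD 603, 607, 644 and 653, against -11.8, -9.86, -12.7 and -9.93 units on Control 602, 613, 615 and 639. It gave -6.31 units on HFD 640, against -21.4 and -5.82 units on Control 635 and 652. It lay below the mean of the negative-control spots on all 11 arrays. A single spot of it was well above background, on Control 635. Since neither miR-9 nor miR-124 was measured above background in either group, no fold change is given, and neither entered the test, which needed detection on at least 5 arrays.

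miR-128, which restrains excitability in neurons, was dim. It gave 41.0, 47.2, 49.4 and 47.0 units on HFD 603, 607, 644 and 653, against 34.3, 44.4, 46.1 and 49.4 units on Control 602, 613, 615 and 639. On the second design it gave 36.6 units on HFD 640, against 26.2 and 35.2 units on Control 635 and 652. Control 602 was the lowest array of the first design and Control 639 the highest, with the 4 HFD arrays between them. The 2 arrays without a detection call were HFD 653, where the signal was 1.56 times the software's error estimate, and Control 635. On the 9 arrays with a call the signal was 5.58 to 8.50 times that error. With the stricter requirement that at least 50% of the spots lie well above background, miR-128 passed on 3 of 5 HFD arrays and 1 of 6 Control arrays. Of its 20 spots per array, 9, 11, 10, 1 and 16 were well above background on HFD 603, 607, 644, 653 and 640, against 8, 9, 9, 10, 1 and 9 on Control 602, 613, 615, 639, 635 and 652. HFD 603 and Control 613, 615 and 652 thus missed by a single spot, and HFD 644 and Control 639 passed with no spot to spare.

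miR-129, a miRNA of the brain, was measured on every array. It gave 201, 301, 269 and 358 units on HFD 603, 607, 644 and 653, against 189, 222, 261 and 306 units on Control 602, 613, 615 and 639. On the second design it gave 89.6 units on HFD 640, against 106 and 76.3 units on Control 635 and 652. HFD 653 was the highest array of the first design and Control 602 the lowest, and the other 6 arrays of both groups were interleaved between them. On the second design HFD 640 lay between the Control arrays. The signal was 7.47 to 11.5 times its error estimate on the 11 arrays.

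miR-153, the miRNA within the vesicle protein gene Ptprn2, was also measured on every array. It gave 121, 149, 150.4 and 68.8 units on HFD 603, 607, 644 and 653, against 88.5, 176, 205 and 184 units on Control 602, 613, 615 and 639. On the second design it gave 410.0 units on HFD 640, against 304 and 364 units on Control 635 and 652. On the first design Control 613, 615 and 639 were the 3 highest arrays, but Control 602 was lower than 3 of the 4 HFD arrays. By this sum of both probes HFD 653 was the lowest of all. On the second design the order was the opposite, with HFD 640 above both Control arrays. HFD 653 gave a signal 2.19 times its error estimate, the lowest for miR-153 on any array, and was the array with the wide negative-control spread described above. The part of that spread in the low value was not tested.

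Each of the 5 was read by 2 probes of 10 spots each, and the same probes stood on both designs. For miR-153 the dimmer probe read above background on 1 design only. On the first design it had 0 of 80 spots well above background and gave -23.1 to 6.40 units, while on the second it had 30 of 30 spots well above background and gave 66.2 to 90.1 units. There the brighter probe was 3.55 to 3.77 times the dimmer one, and for the first design no ratio is given. The brighter probe had 72 of 80 and 30 of 30 spots well above background. The dimmer probe was below 0 on HFD 603, HFD 653 and Control 602, so on those arrays the sum lay slightly or, for HFD 653, clearly under the brighter probe alone, which read 91.9 units there. By the brighter probe alone the lowest array of the first design was Control 602, at 89.0 units, and not HFD 653.

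For miR-129 the brighter probe was 4.97 to 7.07 times the dimmer one on the first design and 1.66 to 1.77 times on the second. The dimmer probe of miR-129 had 64 of 80 and 25 of 30 spots well above background. For miR-128 the dimmer probe had 1 of 80 spots well above background on the first design and 8 of 30 on the second, so no ratio is given, while the brighter probe had 66 of 80 and 18 of 30. A dimmer probe with no spot well above background on the first design and every spot on the second was found for 3 of the 139 tested miRNAs with 2 shared probes (2.16%), namely miR-153 and, chosen after their values were seen, miR-136* and miR-186.

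**Figure D2:**
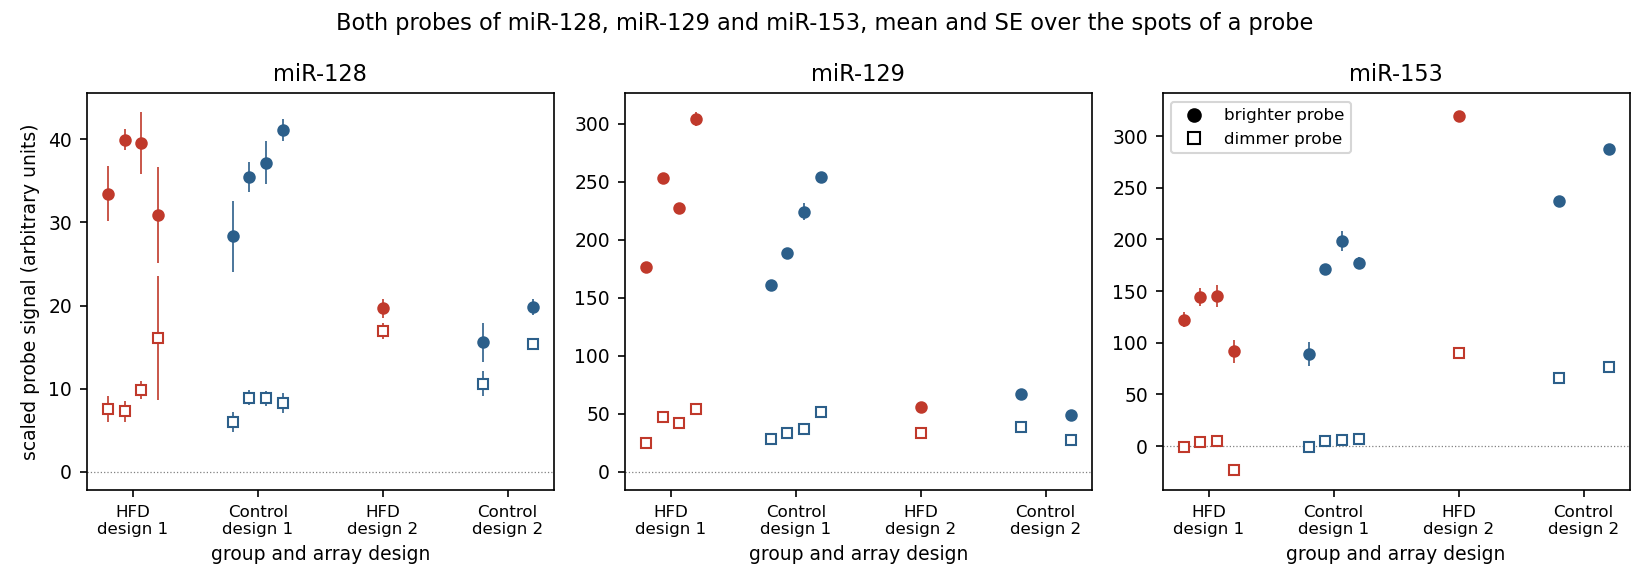
Scaled probe signal in arbitrary units (vertical axes) of the brighter probe (filled circles) and the dimmer probe (open squares) of miR-128, miR-129 and miR-153 on each array, by group and array design. Points are means and bars are SEs over the spots of a probe on 1 array. The dimmer probe of miR-153 lies near or below 0 on the first design and between 66.2 and 90.1 units on the second.

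Levels also differed between the designs in opposite directions. In Control arrays, the second design minus the first was -1.42 for miR-129, -0.51 for miR-128 and 1.10 for miR-153 on the log2 scale, against a median of 0.23 over the 152 tested miRNAs and a range from the 5th to the 95th percentile of -1.21 to 2.26. miR-129 thus lay at percentile 1.32 of all tested miRNAs. Samples, slide, scan and software version changed together with the design, so their parts in these shifts cannot be told apart. The designs were therefore never compared as a condition, and array design was a block in the tests of diet unless a setting says otherwise.

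The comparison of diets asks whether a father's high-fat diet goes with other miRNA levels in his daughters' islets. None of the 3 neuronal miRNAs that could be tested passed the test, which called 0% of all 152 tested miRNAs, and the HFD and Control arrays overlapped for each. miR-128 averaged 5.53 ± 0.12 on HFD arrays and 5.43 ± 0.23 on Control arrays of the first design (log2, SD, n = 4 each). Over both designs its difference was 0.14 ± 0.13 (log2, SE; 95% interval -0.14 to 0.42), a fold of 1.10 with an interval from 0.905 to 1.34 (limma, adjusted p = 0.987). Its brighter probe alone gave 0.057, and its dimmer probe, which was at the floor on 7 arrays, 0.22, neither past the threshold. On the first design the dimmer probe was over the floor on HFD 653 alone, at 16.1 units with 0 of 10 spots well above background.

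miR-129 averaged 8.11 ± 0.35 on HFD arrays and 7.91 ± 0.30 on Control arrays of the first design (log2, SD, n = 4 each). Its difference over both designs was 0.15 ± 0.18 (log2, SE; 95% interval -0.25 to 0.55), a fold of 1.11 with an interval from 0.838 to 1.47 (limma, adjusted p = 0.987). The brighter and dimmer probes gave 0.15 and 0.12 by themselves, neither past the threshold.

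miR-153 averaged 6.87 ± 0.53 on HFD arrays and 7.28 ± 0.55 on Control arrays of the first design (log2, SD, n = 4 each). Its difference over both designs was -0.23 ± 0.28 (log2, SE; 95% interval -0.86 to 0.40), a fold of 0.850 with an interval from 0.549 to 1.32 (limma, adjusted p = 0.987). Its brighter probe alone gave -0.15, and its dimmer probe, which was at the floor on the 8 arrays of the first design, 0.085. The difference was -0.030 without HFD 653, and -0.41 without either HFD 640 or Control 602. Leaving out HFD 603 and HFD 653 together, chosen after the data were seen, turned it to 0.063.

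An exact permutation test that exchanged diet labels only among arrays of 1 design, 2-sided over 210 splits with 0.0048 as the smallest p it can give, gave p = 0.324 for miR-128, 0.419 for miR-129 and 0.443 for miR-153, with an adjusted p of 0.988 for each. Of all 152 tested miRNAs, limma called 0%, and 1.97% had an unadjusted p under 0.05, so 0 of 3 lies at the background. Those 3 of 152, named after their values were seen, were miR-150, miR-296* and miR-431. Permutation also called 0 after adjustment and 3 before. Every HFD array lay above every Control array of its design for 0.658% of miRNAs and below for 0%, and for none of the 3 neuronal ones. The intervals above reach folds of 1.34 for miR-128, 1.47 for miR-129 and 0.549 for miR-153, so equal levels were not shown.

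Within the first design alone the differences were 0.093 for miR-128, 0.20 for miR-129 and -0.41 for miR-153, and within the second, from 1 HFD and 2 Control arrays with no test, 0.27, -0.0028 and 0.30. The diet difference was not shown to depend on the design, with an interaction of 0.18 for miR-128, -0.20 for miR-129 and 0.72 for miR-153, each at an adjusted p of 0.996 in limma. The directions depended on how the signals were processed. miR-128 and miR-129 lay above 0 as given. Both fell below 0 with arrays scaled by the 75th percentile of all shared names or the median over miRNAs detected on all arrays. They also did so under an RMA-like summary, which changed background correction, normalisation and probe summary together. miR-128 was below 0 under quantile normalisation too.

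**Figure D3:**
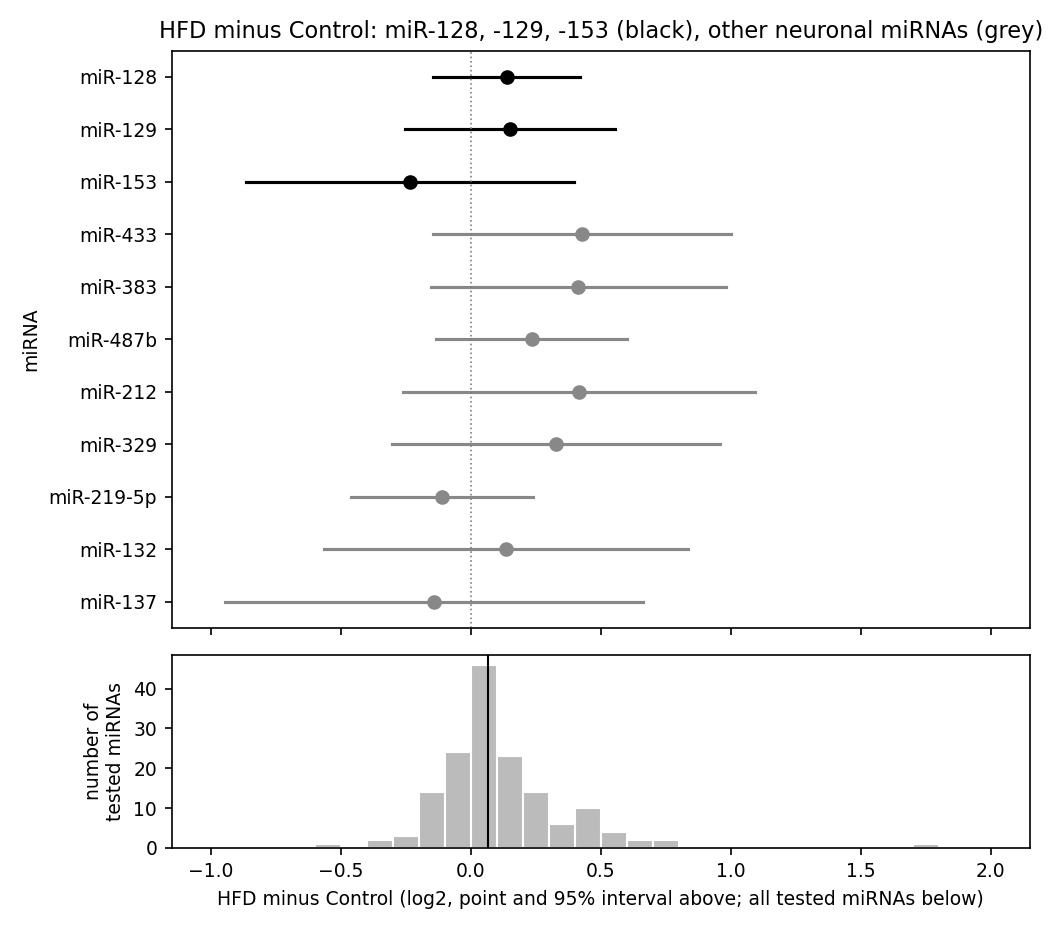
HFD minus Control differences on the log2 scale. The upper panel shows the estimate (point) and 95% interval (bar) for miR-128, miR-129 and miR-153 in black and for 8 other neuronal miRNAs in grey, and every bar crosses 0. The lower panel is a histogram of the differences of all 152 tested miRNAs, with their median of 0.066 as a vertical line.

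**Figure D4:**
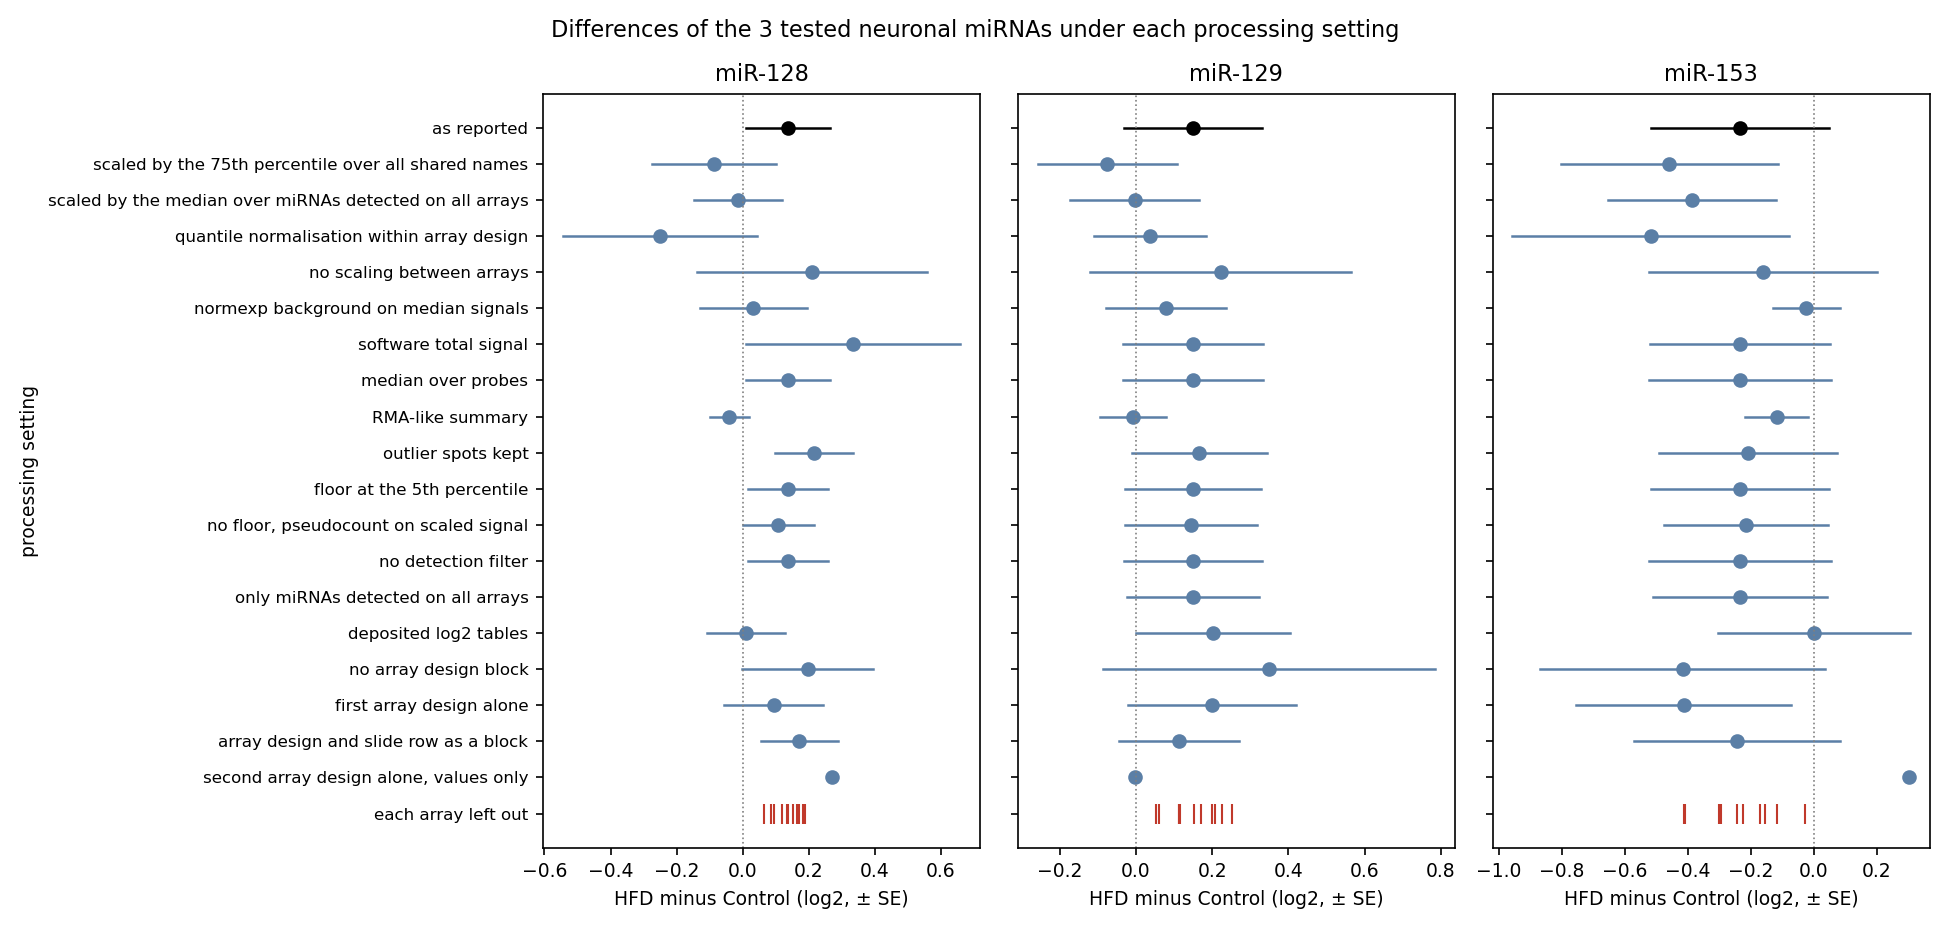
HFD minus Control difference on the log2 scale (horizontal axes, point and SE) of miR-128, miR-129 and miR-153 under each processing setting (rows), with the value as reported on top and the 11 values with 1 array left out as red ticks at the bottom. The second design alone has no SE. miR-128 ranges from -0.25 to 0.33, miR-129 from -0.075 to 0.35 and miR-153 from -0.52 to 0.30. The 0.33 of miR-128 is from the software's total signal, which was 0.1 on Control 635, where miR-128 had no detection call.

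To set the 5 beside other miRNAs of the nervous system, 17 further names known for enrichment in neurons or brain were looked up. Of these, 6 of 17 (35.3%) were detected on no array, a share near the 39.1% of all shared names. One of those detected, miR-219-5p, is also the glial marker named above. Of the 8 that were tested, 6 were higher and 2 lower in HFD islets and 0 passed the test, against 108 higher and 44 lower of all 152. Their median difference was 0.28 on the log2 scale, against 0.066 over all tested miRNAs. The list's median was 0.11 without Control 602, against 0.044 over all tested miRNAs. It was -0.14 under quantile normalisation and -0.023 under the RMA-like summary, against -0.076 and -0.027 over all. With normexp background correction it was 0.040, against 0.047. With arrays scaled by the 75th percentile of all shared names it was 0.056, against -0.15.

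The 3 of smallest p were miR-433, miR-383 and miR-487b, miRNAs known from the brain, of which miR-433 and miR-487b belong to a large imprinted cluster. Their differences were 0.43 ± 0.26 for miR-433, 0.41 ± 0.26 for miR-383 and 0.23 ± 0.17 for miR-487b, all log2 with SE and with an adjusted p of 0.987 in limma. miR-433 averaged 5.28 ± 0.33 on HFD arrays and 4.98 ± 0.58 on Control arrays of the first design (log2, SD, n = 4 each). miR-383 averaged 4.28 ± 0.62 and miR-487b 5.08 ± 0.18 on HFD arrays, against 3.73 ± 0.34 and 4.82 ± 0.41 on Control arrays. miR-383 was at the floor on the second design in both groups. miR-383 and miR-487b share no probe between the designs, while miR-433 shares both.

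The array profiles of miR-129 and miR-153, the members detected on every array, were compared with those of all other tested miRNAs. Each miRNA was centred on its mean within each design, and the mean absolute difference over 11 arrays was taken on the log2 scale. For miR-128 only the distances to miR-129 and miR-153 were taken. miR-129 lay nearest to miR-375 (0.14), the islet endocrine miRNA, then to miR-410 (0.15) and miR-182 (0.16), with a median of 0.29 over all. miR-153 lay nearest to miR-31, miR-30b-5p and miR-136* (0.16 each), with a median of 0.36. miR-129 and miR-153 differed from each other by 0.39, miR-128 and miR-153 by 0.26, and miR-128 and miR-129 by 0.21. The opposite positions on HFD 653, 0.47 for miR-129 and -0.97 for miR-153 relative to the mean of its design, were the largest single gap between miR-129 and miR-153. These arrays share scaling and labelling, and the distances are a description with no test.

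**Figure D5:**
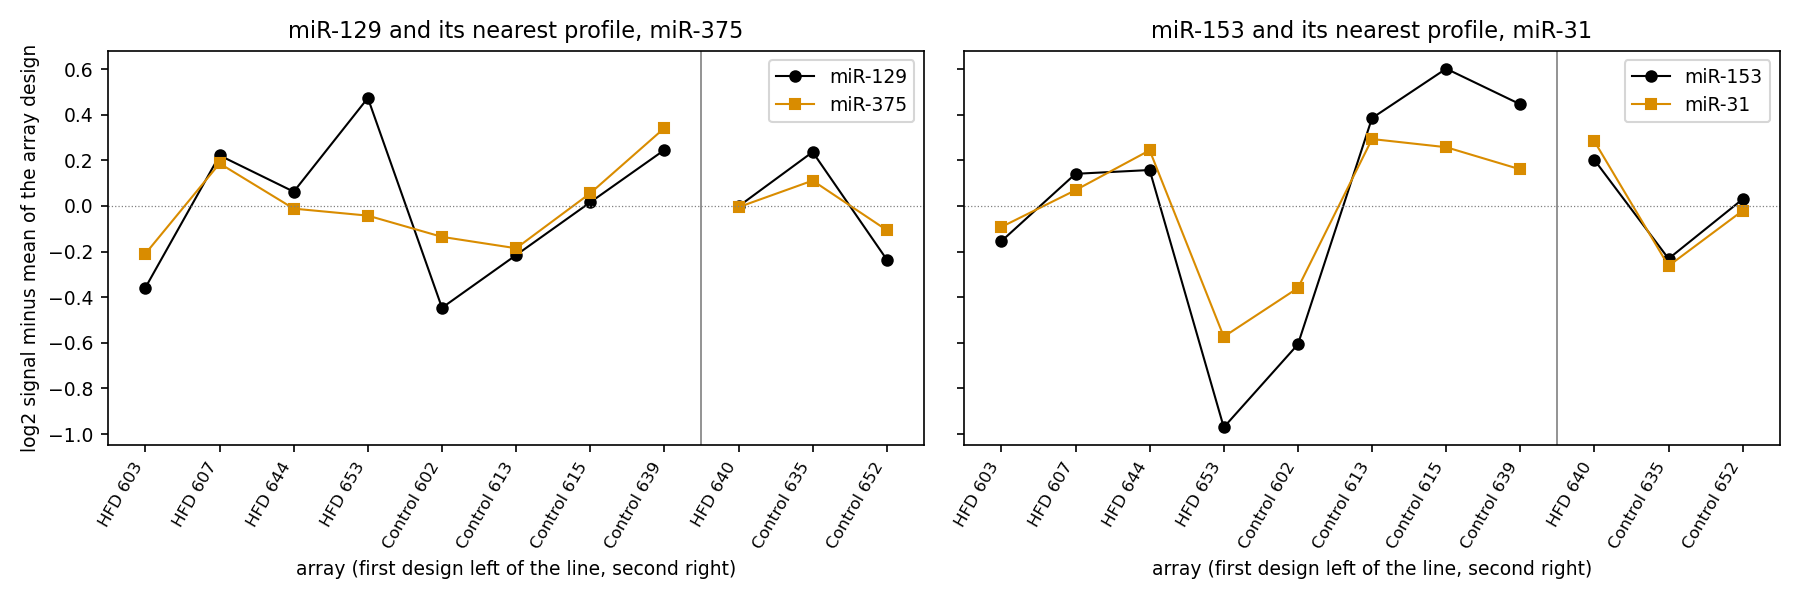
Log2 signal minus the mean of the array design (vertical axis) on each array (horizontal axis, HFD arrays left of Control arrays within each design) for miR-129 with miR-375 and for miR-153 with miR-31. Lines join arrays to aid the eye only. miR-129 is high and miR-153 low on HFD 653, and both are low on Control 602.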

How the data were processed

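Per the labels' protocols, Cy3-labelled islet RNA was read on Agilent miRNA arrays with 1 colour. The authors deposited the scanner's spot intensity, background-subtracted and spatially detrended within each array by Agilent Feature Extraction 10.5.1.1 (first design) or 10.7.3.1 (second), with no normalisation between arrays, per the file headers. They also deposited detection calls and 2 tables of log2 values. The first table matches log2 of (total intensity + 50), with 0 of 2720 cells off by over 0.01. The second matches log2 of total intensity in detected cells and is blank in the others, with 7 of 477 shared cells off. Over the shared names the first table's column medians were 5.69, 5.73, 5.71 and 5.83 for HFD 603, 607, 644 and 653. For Control 602, 613, 615 and 639 they were 5.70, 5.70, 5.68 and 5.69. The second table's, over its filled cells only, were 6.78 for HFD 640 and 6.69 and 7.01 for Control 635 and 652. Medians of the 2 tables are thus over unlike sets of names. Neither table holds ratios, so neither has a direction. Per the submitters' processing notes RMA and Partek were used, in a role not given in the sources used here.

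Spots without an outlier flag were averaged per probe, probes were summed per miRNA, and arrays were scaled to a common 75th percentile, taken over the 85 miRNAs that all 11 arrays detected. Scaled values under the 1st percentile of detected values, 10.3, were set to that floor. No array of miR-128, miR-129 or miR-153 was at the floor. limma 3.58.1 in R 4.3.3 was fitted, with array design as a block except where stated, to the 152 miRNAs detected on at least 5 arrays, with Benjamini-Hochberg adjustment at 0.05, and the fit was tested on simulated data. The number of arrays limits the precision. Alternatives covered scaling, background correction (normexp on median spot signals with an offset of 50, since the files used hold no mean signals), summary, floor, filter, deposited tables, block and arrays left out. Named miRNAs were the 5, the 3 of smallest p among the other neuronal miRNAs, the 3 profiles nearest to each of the 5 detected on all arrays, and markers. The members and lists were chosen with earlier results of these data known.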

Additional observations from a re-analysis of the deposited data

Results flagged for a closer look

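In the Control arrays of the first design, the median log2 level of the 8 other neuronal miRNAs that were tested set Control 602 apart from Control 613, 615 and 639. The gap from Control 602 to its nearest neighbour was 0.903 of the range of the 4 arrays, above Dixon's critical value for 4 samples. Chance alone gives a gap above that critical value, 0.829, in about 1 of 20 groups, and 8 groups were checked here. Without Control 602 the median HFD minus Control difference of these miRNAs was 0.11 on the log2 scale in place of 0.28. Control 602 was also the lowest array of its design for miR-128 and miR-129 and, by the sum of both probes, the second lowest for miR-153.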

How the results depend on the processing

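No paired analysis was possible because no sample number in the labels occurs in both groups. With slide row added to the block, chosen after the data were seen, the differences were 0.17 for miR-128, 0.11 for miR-129 and -0.24 for miR-153, with 0 miRNAs called. These equal the differences without Control 652, the lone array of its block, since the diets were balanced over the slide rows of the first design. The setting is thus no separate check of slide row. miR-128, miR-129 and miR-153 passed the test under none of the settings run, with adjusted p from 0.791 to 0.999 for miR-128, 0.833 to 0.999 for miR-129 and 0.801 to 0.999 for miR-153. Differences that changed sign were, on the log2 scale, -0.087 (miR-128) and -0.075 (miR-129) with arrays scaled by the 75th percentile of all shared names. They were -0.015 and -0.0033 with the median over miRNAs detected on all arrays, and -0.041 and -0.0076 with the RMA-like summary. With quantile normalisation only that of miR-128 changed sign, to -0.25. These settings moved the median of all 152 tested miRNAs by -0.21, -0.15, -0.093 and -0.14. Relative to that median, miR-129 was above 0 and miR-153 below 0 under all 4, and miR-128 was above 0 under the first 2 (0.059 and 0.069) and below under the others (-0.014 and -0.17). For miR-153 the sign changed to 0.00043 with the authors' deposited log2 tables, 0.063 without HFD 603 and HFD 653, 0.30 in the second design alone and 0.085 with the dimmer probe alone, and for miR-129 to -0.0028 in the second design alone. Leaving out 1 array at a time gave 0.064 (without Control 602) to 0.19 (without Control 639) for miR-128, 0.054 (without HFD 653) to 0.25 (without HFD 603) for miR-129, -0.41 (without HFD 640) to -0.030 (without HFD 653) for miR-153, and 0.11 to 0.34 for the median of the other neuronal miRNAs, with no sign change and 0 miRNAs called. That median was -0.14 with quantile normalisation and -0.023 with the RMA-like summary, and above 0 under the other settings. With no scaling between arrays, 1 miRNA of 152 was called, miR-150, named after its values were seen (adjusted p = 0.00062 in limma), and under the other settings 0. miR-128 was detected on 81.8% of arrays by the software's call and on 36.4% when at least 50% of its spots had to be well above background, against 90.9% for miR-153 and 100% for miR-129 by that requirement. On the first design miR-153 passed with 10 of 20 spots, all of its brighter probe, on every array but HFD 653. On HFD 653 miR-129 passed with 10 of 20. These passes had no spot to spare. The causes of the changes between settings were not tested.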

Other observations

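The starred names with the same stems, which stand for the other arm of a hairpin and were outside the comparison, split as the unstarred ones did for miR-9 and miR-124. miR-9*, miR-124*, miR-128-1*, miR-128-2* and miR-153* were detected on none of the arrays that carried them. The other arm of miR-129 was detected on every array that carried it. On the first design, miR-129* gave 147, 288, 202 and 90.7 units on HFD 603, 607, 644 and 653, against 75.5, 176, 148 and 310.0 units on Control 602, 613, 615 and 639. HFD 653 was thus the highest array of its design for miR-129 and the lowest of the HFD arrays for miR-129*.

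The second design carried the other arm of each miR-129 hairpin under its own name. Whether the probes of either name also read the other arm was not tested. miR-129-1* gave 343 units on HFD 640, against 391 and 285 units on Control 635 and 652. miR-129-2* gave 302 units on HFD 640, against 348 and 265 units on Control 635 and 652. For both, HFD 640 lay between the Control arrays, as it did for miR-129.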
